A study of Mus musculus with 20 samples.

Results

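Meningeal and perivascular fibroblast genes were examined in whole mouse brain as a list of 35 genes, taken by gene symbol from the deposited expression table. All 35 genes were found among the 17211 genes of the table, and none was at 0 in any brain. The rule that chose the genes uses names and no measured value, but the list was drawn up with earlier results of these data known. By role it held 6 collagens, 5 small leucine-rich proteoglycans, 7 other matrix and secreted proteins, 4 growth factors with their binding protein, 6 solute carriers, 2 lipid and retinoid enzymes and 5 transcription regulators.

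The meninges are the membranes that cover the brain, and their fibroblasts continue along penetrating vessels into the perivascular space. These cells lay down fibrillar collagen, organise it with small proteoglycans, release growth factors and retinoic acid, and carry transporters that move solutes between blood, cerebrospinal fluid and brain. In a whole-brain extract they are a small part of the cells, and a change in the number of these cells and a change in RNA per cell cannot be told apart in bulk RNA.

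RNA was sequenced from 20 brains, 10 from C57BL/6 mice and 10 from *Winnie* mice, each group labelled as 5 females and 5 males. The methods give the age of the mice as 14 weeks and say that both strains came from one breeding colony. *Winnie* mice carry a missense mutation of *Muc2*, the gene of the main intestinal mucin, in every cell and develop colitis without any treatment, so the mutation and the colitis cannot be told apart. The methods name 8 C57BL/6 and 6 *Winnie* mice in the brain comparison, whereas the labels name 10 and 10, and all 20 were used here.

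Between 16540303 and 23923769 reads were assigned to genes per brain, so that 1 read was worth 0.0418 to 0.0605 CPM, the unit of the table, which scales the reads of each library to a common total. Markers of neurons, astrocytes, oligodendrocytes and microglia were present in every brain, as the tissue label says. In 9 of the 10 C57BL/6 samples the X-linked gene *Xist* and the Y-linked gene *Ddx3y* went against the labelled sex, and in 0 of the 10 *Winnie* samples. Samples were therefore not regrouped by sex, and results with the labelled sex or with *Ddx3y* as a term are given where they changed a call. The libraries of the C57BL/6 brains carry lower library numbers than all of the *Winnie* brains, so library order and genotype cannot be told apart.

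Levels of different genes are compared here as CPM per kilobase of exon, as means over the 20 brains. *Ptgds*, the prostaglandin D synthase of the meninges and cerebrospinal fluid, stood far above the others at 307 CPM per kilobase, but oligodendrocytes and choroid plexus are also known to make it. *Igf2*, a growth factor of the leptomeninges, followed at 17.8 CPM per kilobase. *Igfbp2*, which binds insulin-like growth factors and is also made by astrocytes and choroid plexus, was at 16.1 CPM per kilobase. *Mgp*, an inhibitor of calcification, was at 11.4 CPM per kilobase. At the other end of the order were *Foxd1*, a forkhead regulator of stromal cells, at 0.335 CPM per kilobase and *Col3a1*, the type III collagen gene, at 0.264 CPM per kilobase. The scarcest member by CPM was *Foxd1*, with a mean of 1.70 CPM and 24 to 47 reads per brain, so its values carry the largest counting error.

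Promoter sequences are shown for 3 members on which the results below turn: *Slc22a6* because it was higher in *Winnie* brains, and *Bgn* and *Slc13a4* because they varied together with *Igf2* from brain to brain. Each line gives the 250 bases before the RefSeq transcription start on GRCm38.p6, 5′ to 3′ on the strand of the gene. Capitals mark a CCAAT box (CCAAT), a GC box (GGGCGG) or a TATA box (TATAAA) on either strand, and matches on the opposite strand read as their reverse complement. *Slc22a6* lies on the plus strand with its window at chr19:8617746-8617995, *Slc13a4* on the minus strand at chr6:35308127-35308376, and *Bgn* on the plus strand at chrX:73483351-73483600.
Slc22a6: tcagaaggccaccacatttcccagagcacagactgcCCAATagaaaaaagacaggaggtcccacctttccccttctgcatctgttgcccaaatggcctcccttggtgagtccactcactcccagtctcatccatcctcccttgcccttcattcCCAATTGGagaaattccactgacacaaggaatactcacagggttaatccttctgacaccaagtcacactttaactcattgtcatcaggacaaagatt
Slc13a4: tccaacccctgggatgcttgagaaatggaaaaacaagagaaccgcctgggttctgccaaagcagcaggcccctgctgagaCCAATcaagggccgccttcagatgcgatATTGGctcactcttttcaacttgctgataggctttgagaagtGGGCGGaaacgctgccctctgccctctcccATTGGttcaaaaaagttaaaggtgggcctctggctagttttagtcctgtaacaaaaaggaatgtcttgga
Bgn: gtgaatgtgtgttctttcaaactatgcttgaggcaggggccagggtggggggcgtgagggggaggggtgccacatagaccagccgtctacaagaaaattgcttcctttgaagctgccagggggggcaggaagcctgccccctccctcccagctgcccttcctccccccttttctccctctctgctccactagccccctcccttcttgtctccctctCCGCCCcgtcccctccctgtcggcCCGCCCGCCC
The *Slc22a6* window held 3 CCAAT matches, 2 of which overlapped in one palindrome, and the *Slc13a4* window held 3 CCAAT matches and a GC box. The *Bgn* window had no CCAAT match and 3 GC-box matches, all on the opposite strand. Among the 25 members with an entry in the RefSeq promoter table, 7 held CCAAT, against 34.46% of all 27025 promoter windows of the same length. GC boxes were found in 14 of the 25 members against 32.94% of all windows, and TATAAA in 3, *Cemip*, *Col3a1* and *Ogn*, against 12.97%. The forkhead motif GTAAACA, searched because *Foxc1* and *Foxd1* are forkhead genes, was found in 1, *Col6a1*, against 3.093% of all windows. A match is a description of these letters and not a binding site.

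The first question was how far the fibroblast genes varied among brains of one genotype. Most of them varied more than the typical gene. The coefficient of variation within genotype, after the part due to counting was taken off, had a median of 12.7% over the 35 members and of 7.69% over all 17211 genes, and 32 of the 35 members lay above the median of all genes. The transporters, the proteoglycans and the collagens were the most variable roles by their medians, at 14.9%, 14.5% and 15.3%. The transcription regulators had a median of 9.21%, and the counting part accounted for all of the spread of *Foxd1*.

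Among single members, *Col5a1*, a regulator of collagen fibril width, varied most at 24.5%, with levels from 12.1 to 27.8 CPM over the 20 brains. *Slc47a1*, an organic cation exporter, varied by 23.6% and its highest brain was 3.0 times its lowest. *Mgp* varied by 22.3%. At the low end were *Col6a2*, a chain of microfibrillar collagen VI, at 6.75% and *Foxc1*, a regulator that the meninges need to form, at 7.63%. Markers of some other tissues varied more, with medians of 24.4% for 15 markers of choroid plexus epithelium and 33.2% for 5 genes of red blood cells. Medians close to that of the members were found for pericytes at 12.4%, vascular smooth muscle at 12.5%, endothelium at 11.7% and ependyma at 14.1%. A spread above that of the typical gene was therefore not particular to the fibroblast list. Neuronal markers had a median of 7.0%, and those of oligodendrocytes, astrocytes and microglia had medians of 7.85%, 8.20% and 8.99%.

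**Figure D1:**
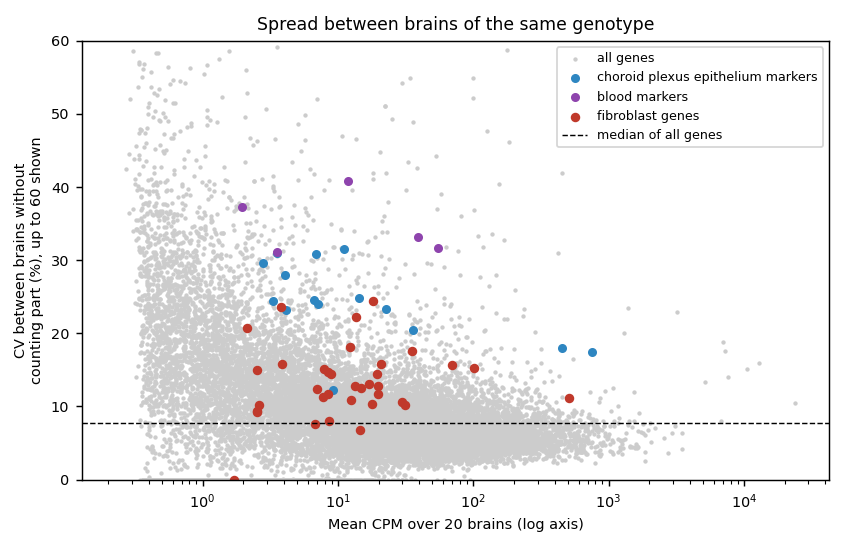
Coefficient of variation between brains of one genotype with the counting part removed (vertical axis, percent, shown up to 60) against the mean level over 20 brains (horizontal log axis, CPM) for all genes in grey, with 57 genes above the axis not drawn. The fibroblast genes (red) lie mostly above the dashed median of all genes at 7.69%, below most choroid plexus markers (blue) and all blood markers (purple).

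The extremes were concentrated in some brains. C57BL/6 replicate 3 held the lowest of the 20 values for 11 members, replicate 5 for 7 and replicate 4 for 4. *Winnie* replicates 2 and 4 each held the highest value of 7 members, C57BL/6 replicate 10 of 5 and *Winnie* replicate 5 of 4. C57BL/6 replicates 3, 5 and 4 carry library numbers 3, 1 and 2. They and these *Winnie* brains are labelled female, C57BL/6 replicate 10 male, but most C57BL/6 sex labels went against *Xist* and *Ddx3y*. The part of library order or of sex in these extremes was not tested. In C57BL/6 replicate 5 only 3 of the 35 members were above their median over the 20 brains, whereas in *Winnie* replicate 2 it was 30. C57BL/6 replicate 10, with 26 members above the median, was thus as high as several *Winnie* brains, and the genotypes overlapped in this count.

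**Figure D2:**
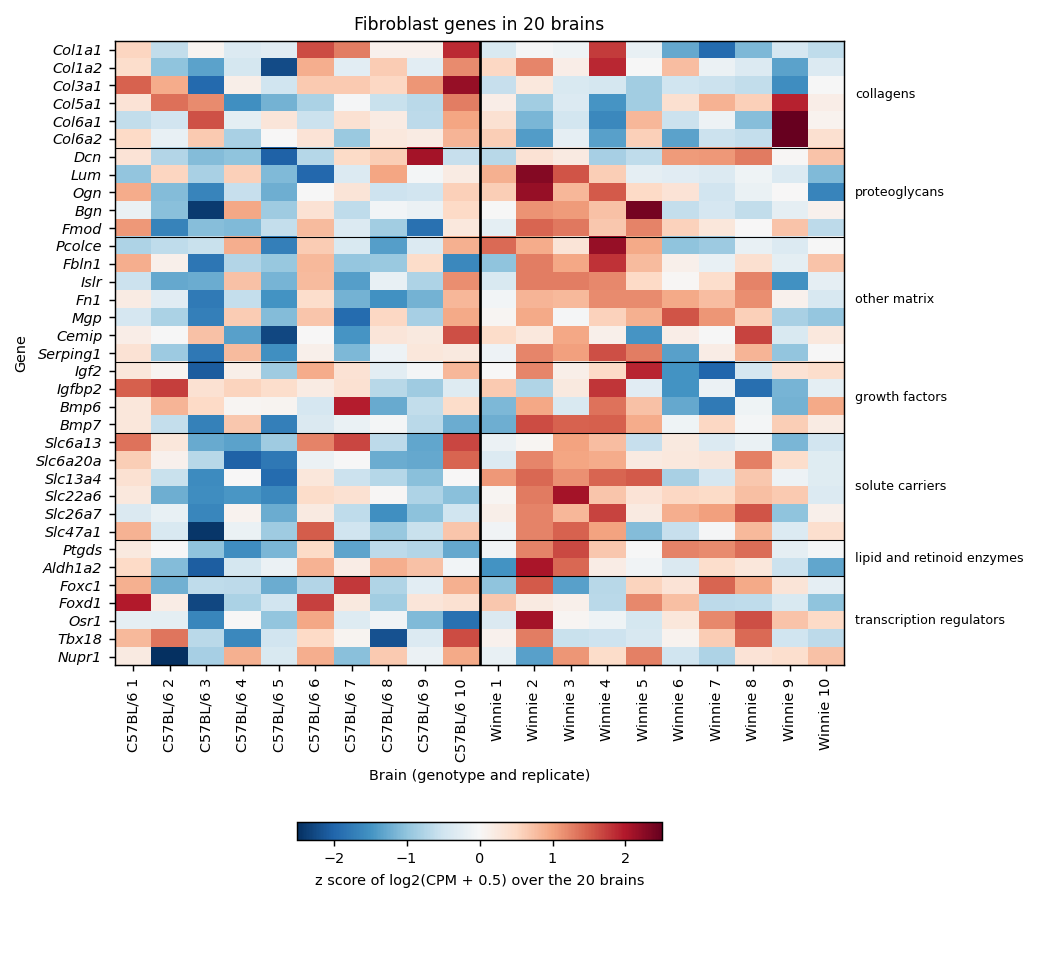
Levels of the 35 fibroblast genes (rows, by role) in the 20 brains (columns, C57BL/6 left and *Winnie* right of the line) as z scores of log2(CPM + 0.5), red above and blue below the mean of the gene. C57BL/6 replicates 3 and 5 are blue in most rows, with 7 and 3 members above the median, and *Winnie* replicate 2 is red in most, with 30.

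The second question was whether the fibroblast genes rose and fell together from brain to brain. Correlations were taken over the 20 brains after the mean of each genotype had been removed. Those between members are given as a description, since all come from the same libraries. The mean of each sex was not removed, so differences between the sexes can enter these correlations and the permutation p-values below. In the *Winnie* brains *Slc13a4* ran from 23.6 to 25.4 CPM in labelled females and from 17.1 to 22.0 CPM in labelled males. In the same order *Igf2* ran from 101 to 136 and from 74.05 to 108 CPM, and *Dcn* from 28.4 to 32.3 and from 31.1 to 35.7 CPM. The part of sex in the covariation was not tested. The 595 pairs of members had a median Pearson r of 0.27, and 76.6% of them were positive. Over all pairs of genes the median was 0.04 and 54.9% were positive. The median over member pairs was 0.30 within C57BL/6 and 0.21 within *Winnie* brains. An r of at least 0.7 was reached by 17 member pairs, which is 2.86%, against 0.484% of all gene pairs.

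The solute carriers kept together most closely among the roles with more than 1 pair, with a median r of 0.51 and all 15 of their pairs positive. The closest pair among them was *Slc6a13*, a GABA and taurine transporter, with *Slc6a20a*, a proline transporter, at 0.77. The other matrix and secreted proteins had a median of 0.40. The collagens did not form such a group, with a median of −0.07. Type I and III collagen genes went with the rest of the list, with median r over the other members of 0.31, 0.43 and 0.40 for *Col1a1*, *Col1a2* and *Col3a1*. *Col5a1* went with *Col6a1* at 0.55 and with *Col6a2* at 0.52, or at 0.36 and 0.32 without *Winnie* replicate 9, and all 3 went against most other members.

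Over the whole list, *Ogn*, a small proteoglycan, had the highest median r with the other members at 0.48, followed by *Slc47a1* at 0.47 and *Slc13a4*, a sulfate transporter, at 0.46. The lowest medians were those of *Col6a1* at −0.28, *Col5a1* at −0.21 and *Col6a2* at −0.17. *Dcn*, the gene of decorin, which is often used as a fibroblast marker, had a median of only 0.04. The genes that stood against the list therefore belonged to 1 role. The closest pairs were *Bgn* with *Igf2* at 0.81, *Col6a1* with *Col6a2* at 0.81 and *Serping1*, an inhibitor of complement C1, with *Slc13a4* at 0.80.

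The collagen VI pair depended in part on 1 brain. Its r was 0.30 within C57BL/6 and 0.95 within *Winnie* brains, and it fell to 0.61 without *Winnie* replicate 9. *Bgn* with *Igf2* was alike in both genotypes, at 0.81 in C57BL/6 and 0.82 in *Winnie* brains, and did not go below 0.74 when any 1 brain was left out. The most negative pair was *Col6a1* with *Slc26a7*, an anion exchanger, at −0.82, with −0.57 within C57BL/6, −0.96 within *Winnie* and −0.73 without *Winnie* replicate 9.

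**Figure D3:**
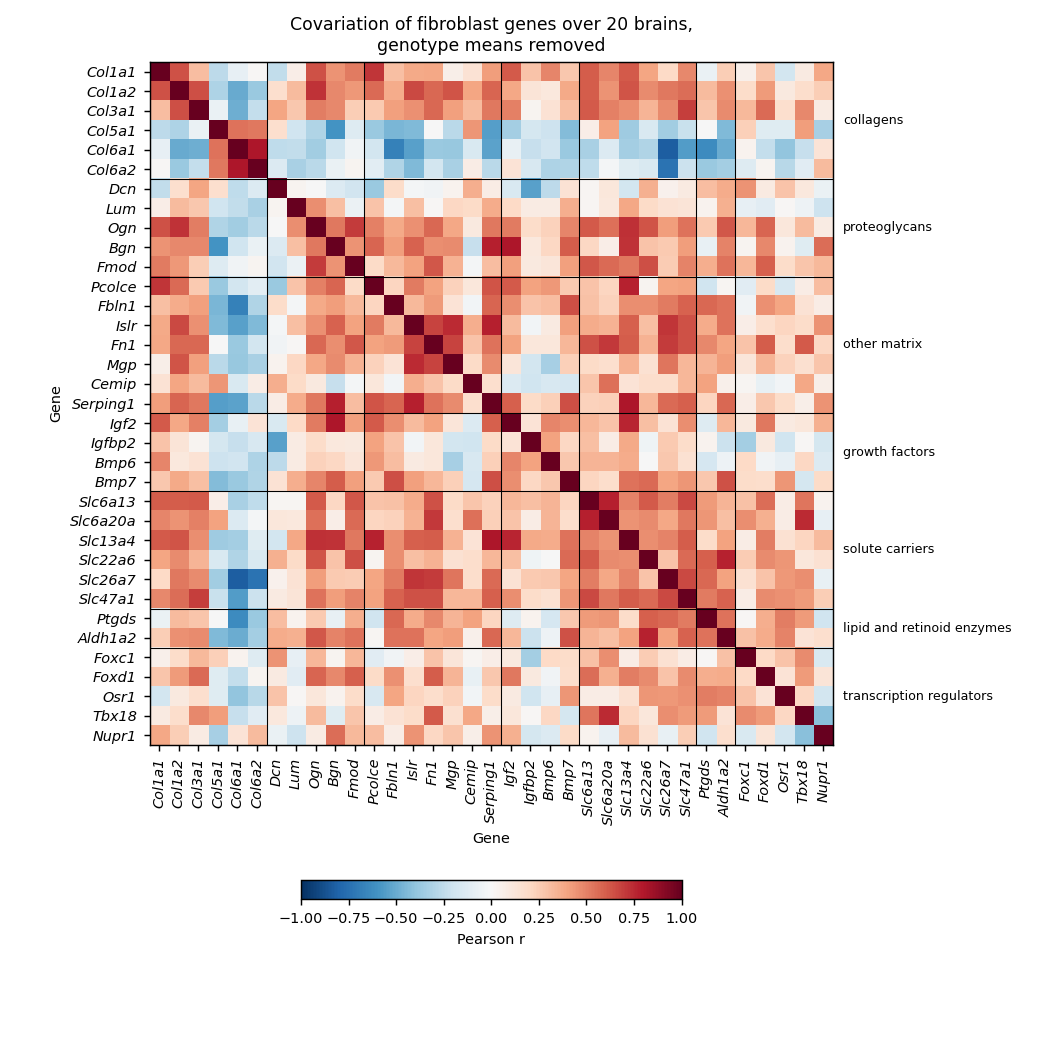
Pearson r between each pair of the 35 fibroblast genes (both axes, by role) over 20 brains with genotype means removed, from −1 (blue) to 1 (red). Most squares are red, 76.6% of the 595 pairs being positive, and the blue bands belong to *Col5a1*, *Col6a1* and *Col6a2*.

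Other cell types were set beside the list in the same way. Pairs of a member with a choroid plexus marker had a median r of 0.14, with an endothelial marker of 0.14 and with a pericyte marker of 0.16. Pairs with a blood gene had a median of −0.13. Behind the choroid plexus median the members differed widely, from a median r with the 15 markers of 0.67 for *Pcolce*, 0.65 for *Igf2* and 0.62 for *Slc13a4* to −0.31 for *Ptgds* and −0.40 for *Dcn*. Choroid plexus markers among themselves had a median of 0.76, and so did the blood genes. Own pairs had a median of 0.67 for oligodendrocyte, 0.55 for pericyte, 0.46 for endothelial, 0.44 for ependymal and 0.40 for microglial markers. All of these lists held together more tightly than the fibroblast genes at 0.27. Markers of astrocytes at 0.26, border macrophages at 0.23, vascular smooth muscle at 0.21 and neurons at −0.07 did not. The part of choroid plexus, vessels or blood in the covariation of the fibroblast genes was not tested.

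Members of 3 roles were then set against every other gene: *Col1a1* for collagen, *Slc6a13* for transport and *Igf2* for growth factors. The p-values come from 100000 permutations of brains within genotype and were adjusted over the 17210 other genes. With *Col1a1*, which encodes the main chain of type I collagen, 0 genes passed an FDR of 0.05 on the positive side (0.0% of all) and 892 had an unadjusted p under 0.05 (5.18% of all). Of the 34 other members 10 had an unadjusted p under 0.05, all positive, 29 had a positive r, and their median was 0.31 against −0.01 over all genes. The choroid plexus markers had a median r with *Col1a1* of 0.49, but of 0.08 within C57BL/6 and 0.75 within *Winnie* brains. The blood genes had a median of −0.38, with −0.35 within C57BL/6 and −0.48 within *Winnie* brains.

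The member closest to *Col1a1*, and the only one with an r of at least 0.7 (0.209% of all genes), was *Pcolce*, whose product helps to cut the C-terminal end from procollagen, with Pearson r = 0.71 (permutation p = 0.00082, FDR 0.243) and Spearman rho = 0.63 (permutation p = 0.0043, FDR 0.241). Its r was 0.51 within C57BL/6 and 0.87 within *Winnie*, and 0.54 without C57BL/6 replicate 10 and *Winnie* replicate 4, the brains farthest from the median of *Col1a1*. *Col1a2*, the partner chain of the same collagen, had an r of 0.64. The 10 genes of highest r with *Col1a1* held no member. They were *Kdr*, a receptor of endothelial growth factor, with an r of 0.80, *Pcdhb16* with 0.79, *Il1rapl2* with 0.77, *Utrn* with 0.77, *4930523C07Rik* with 0.76, *Ugt8a* with 0.76, *Erbb3* with 0.75, *Shc3* with 0.75, *Ston2* with 0.75 and *Foxn3* with 0.74, none under an FDR of 0.103.

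With *Slc6a13* as well, 0 genes passed the FDR, and 1257 positive genes had an unadjusted permutation p under 0.05 (7.3% of all). Among the members 13 did so. The closest was *Slc6a20a*, the only one with an r of at least 0.7 (0.436% of all genes), with Pearson r = 0.77 (permutation p = 0.0007, FDR 0.14) and Spearman rho = 0.71 (permutation p = 0.00199, FDR 0.162). That r was 0.86 within C57BL/6, 0.44 within *Winnie* and 0.72 without C57BL/6 replicates 7 and 10, the brains farthest from the median of *Slc6a13*.

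*Igf2* was the one of these that had partners past the FDR. On the positive side 39 genes passed (0.227% of all), and 2 of the 34 other members were among them. The same 2 were the members with an r of at least 0.7, against 0.523% of all genes, and 12 members had a positive r with an unadjusted permutation p under 0.05, against 5.92%. *Bgn*, a small proteoglycan, had Pearson r = 0.81 (permutation p = 2e-05, FDR 0.0265) and Spearman rho = 0.75 (permutation p = 0.0003, FDR 0.0888). *Slc13a4* had Pearson r = 0.76 (permutation p = 8e-05, FDR 0.0353) and Spearman rho = 0.74 (permutation p = 0.00043, FDR 0.0925). By rank neither passed the FDR. Without C57BL/6 replicate 3 and *Winnie* replicate 7, the brains farthest from the median of *Igf2*, r was 0.76 for *Bgn* and 0.72 for *Slc13a4*, so neither relation was lost without those brains. Choroid plexus markers followed *Igf2* too. The 34 other members had a median r with *Igf2* of 0.33. All 15 choroid plexus markers had a positive r with *Igf2*, with a median of 0.65 (0.25 within C57BL/6 and 0.85 within *Winnie*). Of these markers, 12 had an unadjusted permutation p under 0.05, and 1 passed the FDR. That one was *Prlr*, the prolactin receptor gene, with Pearson r = 0.83 (FDR 0.0265), above the r of *Bgn*. *Cdh5* of the endothelial markers (r = 0.77, FDR 0.0323) and *Zic1* (r = 0.79, FDR 0.0430) and *Slc16a4* (r = 0.72, FDR 0.0378) of the other meningeal markers passed by permutation as well. *Bgn* itself had a median r of 0.50 with the 15 markers, and the part of choroid plexus or of sex in these relations was not tested.

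The third comparison was *Winnie* against C57BL/6. Of the 35 members, 4 were higher in *Winnie* brains at an FDR under 0.05 and 0 were lower: *Slc26a7*, *Fn1*, *Slc22a6* and *Ptgds*. Over all 17211 genes, 2.52% passed in either direction, 1.52% higher and 1.01% lower. At an unadjusted p under 0.05, 10 members were higher, against 9.53% of all genes, and 2 were lower, against 8.08%. The median log2 fold change of the members was 0.12, with 27 positive and 8 negative, against 0.00 and 51.0% positive over all genes. No member passed the stricter threshold on FDR and fold change that the methods set, which 0 genes passed in limma and 12 in DESeq2, while 3030 genes had an unadjusted p under 0.05 in limma. In no member were the genotypes free of overlap, and over all genes this held for 0.0291%.

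This count depended on single brains of both genotypes, and the calls lost were *Fn1* and, for C57BL/6 replicate 5, *Slc22a6* as well. Without C57BL/6 replicate 4, 7, 8 or 9 or *Winnie* replicate 2, 3, 4, 5, 7 or 8 it was 3, the same genes without *Fn1*. Without *Winnie* replicate 6 it was 4, with *Slc13a4* in place of *Fn1*. It rose to 6 without C57BL/6 replicate 1, with *Fmod* and *Slc13a4* added. Without C57BL/6 replicate 10 it was also 6, with *Slc6a20a* and *Slc13a4* added. Without *Winnie* replicate 1 it was 5, with *Bmp7* added. Without C57BL/6 replicate 5 it was 2 of 169 genes called in all, *Slc26a7* and *Ptgds*. Without replicate 3 it was 4, of which *Fn1* was no longer one and *Col3a1* was one, lower in *Winnie* brains. Without replicates 3 and 5 together, a setting chosen after seeing that these brains held the lowest values, none of the 4 passed and *Col3a1* alone did, with a log2 fold change of −0.39 (limma FDR 0.0396). The 4 kept a positive log2 fold change there, from 0.29 for *Ptgds* to 0.51 for *Slc26a7*.

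**Figure D4:**
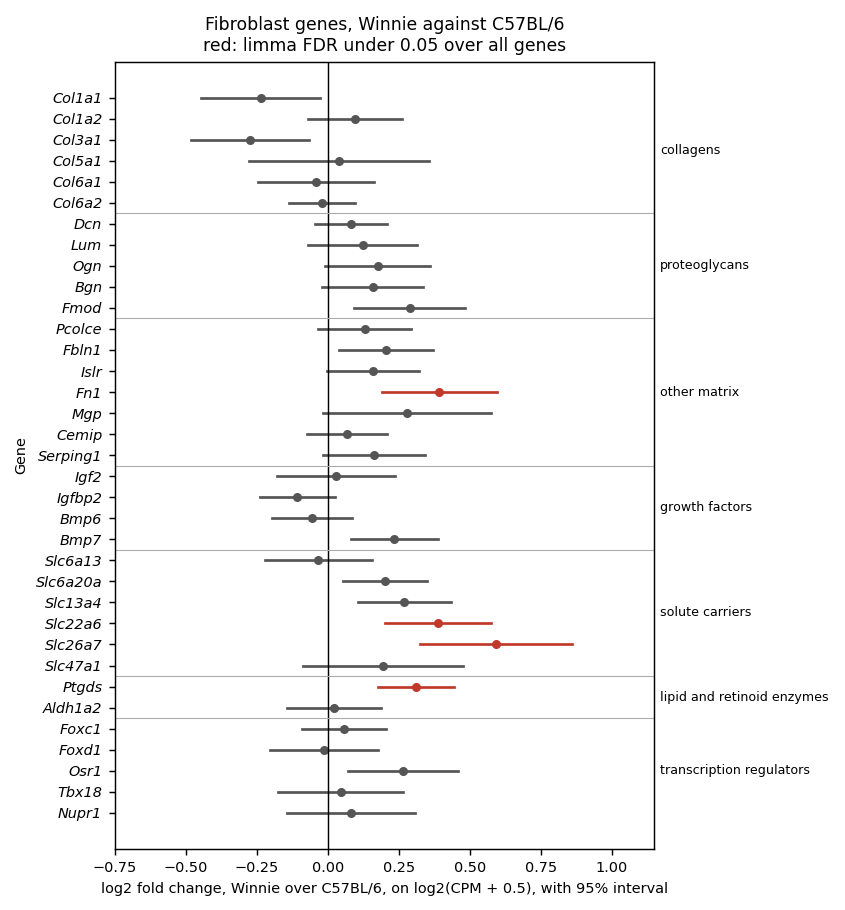
log2 fold change of *Winnie* over C57BL/6 brains (horizontal axis, on log2(CPM + 0.5)) for the 35 fibroblast genes (vertical axis, by role), points with 95% intervals. The 4 members with an FDR under 0.05 (red) lie between 0.31 and 0.59, and the lowest are *Col3a1* at −0.28 and *Col1a1* at −0.24.

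Among the collagens none passed the FDR, 2 were positive and 4 negative, and the median log2 fold change was −0.03. *Col1a1* (chr11:94936224-94953042, plus strand) had a lowest, median and highest level of 10.7, 12.3 and 17.3 CPM in C57BL/6 and of 8.21, 11.1 and 16.9 CPM in *Winnie* brains. In 4 *Winnie* brains it was below every C57BL/6 brain, and in 1, replicate 4, it was above the C57BL/6 median. Its log2 fold change was −0.24 ± 0.10 (SE, limma FDR 0.216). *Col3a1* (chr1:45311538-45349706, plus strand) ran from 1.63 over 2.93 to 4.04 CPM in C57BL/6 and from 1.78 over 2.27 to 2.69 CPM in *Winnie* brains. None of the 10 *Winnie* brains lay above the C57BL/6 median, but the C57BL/6 range enclosed all of them. Its log2 fold change was −0.28 ± 0.10 (SE, limma FDR 0.136), and an overlapping gene model, *Gm47302*, could share its reads since the strand setting of the counting is not given in the sources used here.

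*Col1a2*, the other chain of type I collagen, did not share the sign of *Col1a1*, with a log2 fold change of 0.10 ± 0.08 (SE, limma FDR 0.575). The difference between these chains was not tested. *Col5a1* was at 0.04 and the collagen VI genes *Col6a1* and *Col6a2* at −0.04 and −0.02, with 95% intervals that held 0. In *Winnie* replicate 9 both collagen VI genes were higher than in any other brain, at 54.1 CPM for *Col6a1* and 18.5 CPM for *Col6a2*.

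All 5 small leucine-rich proteoglycans had a positive log2 fold change, with a median of 0.16, and none passed the FDR. These proteins coat collagen fibrils and set their spacing. *Dcn* (chr10:97479609-97518143, plus strand) had 24.9, 28.9 and 38.8 CPM as its lowest, median and highest level in C57BL/6 and 28.4, 32.0 and 35.7 CPM in *Winnie* brains. The *Winnie* values lay wholly within the C57BL/6 range, with a log2 fold change of 0.08 ± 0.06 (SE, limma FDR 0.529). *Fmod*, the gene of fibromodulin, came closest to the threshold, with 18.9 ± 3.69 CPM in C57BL/6 and 23.0 ± 3.02 CPM in *Winnie* (SD, n = 10 each) and an FDR of 0.0977 in limma. All 10 *Winnie* brains were above the C57BL/6 median of *Fmod*. *Lum*, *Ogn* and *Bgn* lay between 0.12 and 0.18.

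The 7 other matrix and secreted proteins were also all positive, with a median log2 fold change of 0.16, and *Fn1* was the 1 that passed. *Fn1* (chr1:71585520-71653200, minus strand) encodes fibronectin, an adhesive matrix protein that endothelial cells make as well. Its lowest, median and highest levels were 47.0, 56.7 and 80.9 CPM in C57BL/6 and 62.8, 81.1 and 87.2 CPM in *Winnie* brains. All 10 *Winnie* brains were above the C57BL/6 median and 5 were above the highest C57BL/6 brain, replicate 10. *Fn1* was higher in *Winnie* by a log2 fold change of 0.39 ± 0.10 (SE, limma FDR 0.0371), and it missed an FDR of 0.05 in 13 of the 20 fits that left out 1 brain, with an FDR of up to 0.0809. It overlaps the gene model *Apol7d*, and *Col1a2*, *Col5a1*, *Ogn*, *Pcolce*, *Islr*, *Bmp6*, *Slc6a13*, *Slc6a20a*, *Aldh1a2*, *Osr1* and *Tbx18* overlap other gene models as well.

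*Mgp* (chr6:136872435-136875823, minus strand) had 8.06, 11.3 and 16.7 CPM in C57BL/6 and 10.3, 15.3 and 19.6 CPM in *Winnie* brains as lowest, median and highest level. In 3 *Winnie* brains it was above every C57BL/6 brain, but the spread was wide, and the log2 fold change was 0.28 ± 0.14 (SE, limma FDR 0.318). *Fbln1*, the gene of fibulin-1, was at 0.21 ± 0.08 (SE, limma FDR 0.166). *Pcolce*, *Islr*, *Cemip*, which breaks down hyaluronan, and *Serping1* had log2 fold changes from 0.07 to 0.16.

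Among the growth factors and their binding protein none passed. *Igf2* (chr7:142650766-142666816, minus strand) had 72.9, 103 and 117 CPM in C57BL/6 and 74.0, 105 and 136 CPM in *Winnie* brains. The groups covered nearly the same range, with a log2 fold change of 0.03 ± 0.10 (SE, limma FDR 0.920), and its overlap with *Igf2os*, *Mir483* and *Gm49394* leaves the origin of some reads uncertain. *Igfbp2* (chr1:72824503-72852474, plus strand), the third-lowest member by fold change, had 26.7, 30.9 and 36.1 CPM in C57BL/6 and 23.7, 28.7 and 36.4 CPM in *Winnie* brains. In 3 *Winnie* brains it was below every C57BL/6 brain, with a log2 fold change of −0.11 ± 0.06 (SE, limma FDR 0.396). The bone morphogenetic proteins differed in sign, with *Bmp6* at −0.06 ± 0.07 and *Bmp7* at 0.23 ± 0.08 (SE). *Bmp7* had an FDR of 0.0824 in limma and 0.0431 in DESeq2.

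The solute carriers held 2 of the 4 called members and had the highest median log2 fold change of all roles, 0.24, with 5 of 6 positive. *Slc26a7* (chr4:14502430-14621805, minus strand) had 1.04, 1.62 and 2.21 CPM as lowest, median and highest level in C57BL/6 and 1.36, 2.78 and 3.70 CPM in *Winnie* brains. In 6 *Winnie* brains it exceeded every C57BL/6 brain, while *Winnie* replicate 9 lay below the C57BL/6 median. It had the greatest difference among the members, a log2 fold change of 0.59 ± 0.13 (SE, limma FDR 0.0157), from 18 to 71 reads per brain. *Slc26a7* stayed under an FDR of 0.05 in each of the 20 fits that left out 1 brain, with an FDR of at most 0.0384.

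*Slc22a6* (chr19:8618039-8628299, plus strand), whose promoter is printed above, encodes the organic anion transporter OAT1. Its levels were 5.37, 6.30 and 8.502 CPM in C57BL/6 and 7.14, 8.75 and 12.03 CPM in *Winnie* brains. All 10 *Winnie* brains were above the C57BL/6 median and 7 were above the highest C57BL/6 brain. The log2 fold change was 0.39 ± 0.09 (SE, limma FDR 0.0216), and the FDR reached 0.0538 in the 1 of the 20 fits that lost the call, the one without C57BL/6 replicate 5.

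The remaining carriers did not pass. *Slc13a4* was at 17.99 ± 2.29 CPM in C57BL/6 and 21.8 ± 3.21 CPM in *Winnie* brains (SD, n = 10 each). It had a log2 fold change of 0.27 ± 0.08 (SE) and an FDR of 0.0652 in limma, 0.0653 in edgeR and 0.0296 in DESeq2, and of 0.0131 in limma with *Ddx3y* as a term. *Slc6a20a* was at 0.20 ± 0.07 and *Slc47a1* at 0.19 ± 0.14 on the same scale. *Slc6a13* (chr6:121300227-121337733, plus strand) was the only carrier with a negative value. It had 6.66, 8.05 and 10.8 CPM in C57BL/6 and 6.88, 8.06 and 9.75 CPM in *Winnie* brains, with every *Winnie* brain inside the C57BL/6 range and a log2 fold change of −0.03 ± 0.09 (SE, limma FDR 0.896).

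*Ptgds* (chr2:25466709-25470046, minus strand) shared the lowest FDR of the members with *Slc26a7*. It had 394, 438 and 540 CPM as lowest, median and highest level in C57BL/6 and 483, 577 and 646 CPM in *Winnie* brains. All 10 *Winnie* brains were above the C57BL/6 median and 6 were above the highest C57BL/6 brain, replicate 6. The log2 fold change was 0.31 ± 0.06 (SE, limma FDR 0.0157), and the FDR was at most 0.0383 when any 1 brain was left out. *Aldh1a2*, which makes retinoic acid in the meninges, was at 0.02 ± 0.08 (SE, limma FDR 0.928) with ranges of 5.73 to 8.65 CPM in C57BL/6 and 6.20 to 10.1 CPM in *Winnie* brains.

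None of the transcription regulators passed. *Foxc1* (chr13:31806633-31812476, plus strand) had 5.88, 6.30 and 8.28 CPM in C57BL/6 and 5.81, 7.04 and 8.06 CPM in *Winnie* brains. The groups overlapped almost fully, with a log2 fold change of 0.06 ± 0.07 (SE, limma FDR 0.737). *Osr1*, a zinc finger gene of connective tissue, was the highest of the role at 0.26 ± 0.10 (SE, limma FDR 0.125). *Foxd1*, *Tbx18*, a T-box gene of mural cells and fibroblasts, and *Nupr1*, a stress-response gene, had log2 fold changes of −0.01, 0.05 and 0.08.

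**Figure D5:**
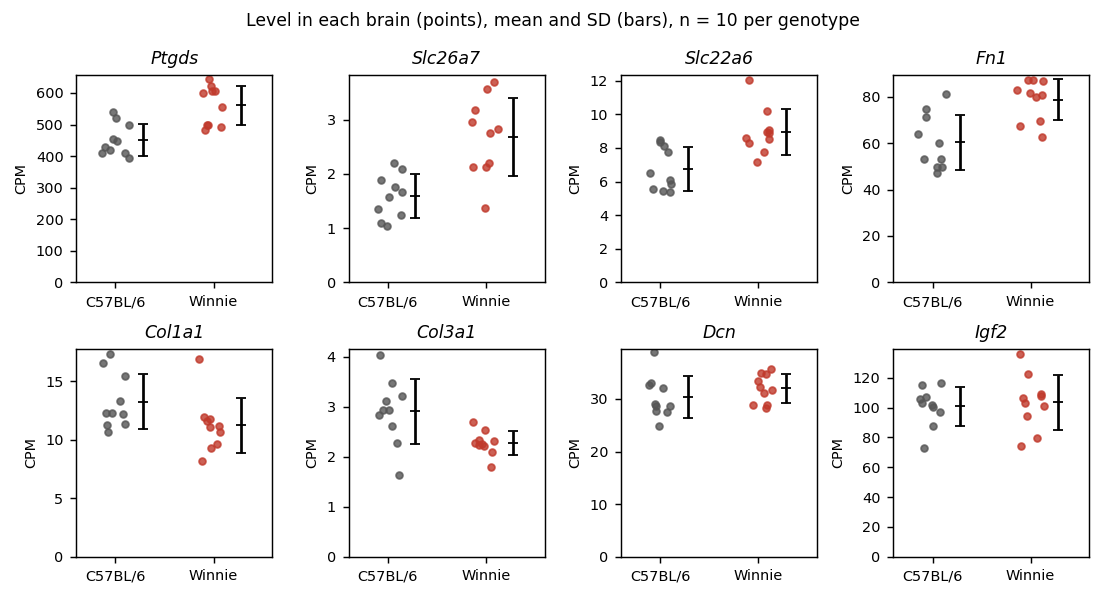
CPM of 8 fibroblast genes in each of the 10 C57BL/6 (grey) and 10 *Winnie* (red) brains, with mean and SD beside the points and axes from 0. *Ptgds*, *Slc26a7*, *Slc22a6* and *Fn1* are shifted up in *Winnie* brains with overlapping ranges, *Col1a1* and *Col3a1* lie lower, and the ranges of *Dcn* and *Igf2* largely coincide.

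Wider lists of genes not among the 35 were read beside them. Of 30 other fibroblast matrix genes, 22 had a positive and 8 a negative log2 fold change, with a median of 0.07, and 1 passed in each direction. *Aebp1*, a collagen-binding protein of connective tissue, was higher at 27.0 ± 2.78 against 22.0 ± 2.26 CPM (SD, n = 10 each), by 0.29 on the log2 scale (limma FDR 0.0112). *Serpinh1*, the chaperone that folds procollagen, was lower at 15.8 ± 1.76 against 20.3 ± 3.35 CPM, by a log2 fold change of −0.34 (limma FDR 0.0214). It was below every C57BL/6 brain in 7 *Winnie* brains, and it had the lowest value of its list, while *Omd*, a small proteoglycan, had the highest at 0.35 (limma FDR 0.0931).

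Of 25 other meningeal fibroblast markers, 16 were positive and 9 negative, with a median of 0.08, and 2 passed, both higher. *Pdgfra*, which also marks oligodendrocyte precursors, had a log2 fold change of 0.20 (limma FDR 0.0330), and *Itih5*, which stabilises hyaluronan, of 0.24 (limma FDR 0.0464). *Lama1*, a laminin of the pial basement membrane, was highest at 0.29 (limma FDR 0.154) and *S100a6* lowest at −0.25 (limma FDR 0.102). Without C57BL/6 replicates 3 and 5, none of the 4 genes named as passing in these lists passed, *Aebp1* having an FDR of 0.0558. In the 20 fits that left out 1 brain, *Itih5* missed an FDR of 0.05 in 15 and *Pdgfra* in 7. *Serpinh1* missed it in 1 and *Aebp1* in 0.

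Markers of neighbouring tissue did not all move in one direction with the members. The summed level of the 35 members, most of it *Ptgds*, was 894 to 1139 CPM in C57BL/6 with a median of 973, and 1052 to 1258 CPM in *Winnie* brains with a median of 1155. The 15 choroid plexus markers summed to 1198 to 1530 CPM with a median of 1427 in C57BL/6 and to 868 to 1631 CPM with a median of 1278 in *Winnie* brains, and 12 of the 15 had a negative log2 fold change, none past the FDR. The 5 blood genes all had a negative log2 fold change, but the medians of their sums were close. The sums were 93.6 to 208 CPM with a median of 115 in C57BL/6, and 40.6 to 150 CPM with a median of 118 in *Winnie* brains. Of 8 endothelial markers 6 were positive and 1, *Cldn5*, was lower at −0.47 (limma FDR 0.00331), with sums of 182 to 256 CPM and 204 to 243 CPM. Of 4 border macrophage markers all were positive, with a median log2 fold change of 0.22, 2 had an unadjusted p under 0.05 in limma and none passed the FDR, with sums of 2.78 to 4.97 CPM and 3.38 to 6.22 CPM. The 3 vascular smooth muscle markers were positive too, with a median log2 fold change of 0.06. For 1 of them the unadjusted p was under 0.05 in limma, none passed the FDR, and they summed to 13.7 to 19.4 CPM and 15.9 to 20.01 CPM. Of 6 pericyte markers 4 were positive and 1 passed as higher, with sums of 173 to 212 CPM and 178 to 215 CPM. Oligodendrocytes were named above as another source of *Ptgds*. Of their 4 markers 1 was positive and 3 were negative, with a median log2 fold change of −0.05 and none past the FDR. No marker of these lists was at 0 in any brain, and the part of these tissues in the differences of the fibroblast genes was not tested.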

How the data were processed

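Whole-brain RNA of 10 C57BL/6 and 10 *Winnie* mice was sequenced as polyA libraries with paired-end reads of 100 bases. The authors ran RNAsik 1.5.4 on GRCm38, counted reads per gene with featureCounts and deposited CPM values, reads scaled to a common library total, made in Degust. The aligner, the strand setting and the filter on low values are not given in the sources used here.

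Every CPM value was a whole multiple of a step of its library (100% within 0.0015 CPM), so whole reads were recovered. *Winnie* and C57BL/6 were compared with limma 3.58.1 (trend, robust) on log2(CPM + 0.5), on which fold changes of low genes are understated, with Benjamini-Hochberg FDR over all 17211 genes. edgeR 4.0.16 (quasi-likelihood, which called 514 genes) and DESeq2 1.42.0 were run on the recovered reads. Correlations were taken on the same scale with genotype means removed. The counting part of the spread was 1 over the mean reads. Gene positions, exon lengths and overlaps come from GENCODE on GRCm38, promoters from RefSeq. The limma and edgeR fits and the permutation p-values were tested on simulated data.

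The 35 genes, the wider lists and the markers were chosen with earlier results of these data known. Named genes were all members, with lowest, median and highest levels for 1 per role, those past the FDR and the 3 highest and lowest fold changes. From the wider lists those past the FDR and the extremes were named, and the 10 genes closest to *Col1a1*. Alternatives were other pseudocounts, scalings, tools, covariates, a replicate block and brains left out. A few markers of other cell types were not analysed here.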

Additional observations from a re-analysis of the deposited data

Results flagged for a closer look

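In 4 of 84 groups of 10 brains (42 genes, each genotype apart), 1 brain stood farther from the others than Dixon's 95% critical value of 0.466 for the gap over the range allows. Chance flags about 1 group in 20. *Winnie* replicate 9 had a *Col6a1* level of 54.09 CPM, with the next *Winnie* brain at 39.88 CPM, and a *Col6a2* level of 18.48 CPM, with the next at 15.21 CPM. *Winnie* replicate 4 had a *Col1a1* level of 16.88 CPM, with the next at 11.94 CPM. *Winnie* replicate 5 had a *Bgn* level of 28.05 CPM, with the next at 22.98 CPM.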

How the results depend on the processing

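Against 434 genes at an FDR under 0.05, 4 of them members, DESeq2 called 977 with 6 members, adding *Bmp7* and *Slc13a4*, and 12 genes at the stricter threshold of the methods. Limma with *Ddx3y* as a term called 5 members, adding *Slc13a4*. Other pseudocounts, scalings, the low-value filter, labelled sex and edgeR called 4 members each. Without C57BL/6 replicates 3 and 5, 67 genes and 1 member, *Col3a1*, were called, and log2 fold changes changed sign for *Col6a1* (0.0064), *Igf2* (−0.050) and *Aldh1a2* (−0.027). Leaving out 1 brain gave 169 to 694 genes, 0 to 2 at the stricter threshold, 2 to 6 members, and a spread of 11.8% to 13.2%. The member spread was 15.4% with counting left in. Sign changes with 1 brain left out occurred for *Col5a1* (−0.031 to 0.096), *Igf2* (−0.021 to 0.080), *Slc6a13* (−0.068 to 0.0058), *Aldh1a2* (−0.020 to 0.054), *Foxd1* (−0.061 to 0.026) and *Tbx18* (−0.011 to 0.093), none past the FDR. Genes covarying with *Col1a1* at an FDR under 0.05 in either direction numbered 4 with median-ratio scaling, 0 of them positive, against 0. With *Igf2* in its place they numbered 66, of which 39 were positive. Where no cause is named above, the cause was not tested.

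Replicate numbers did not pair the brains. Same-numbered brains had correlations from −0.29 to 0.15, with 2 of 10 above 0.1, and 1 of 10 C57BL/6 brains correlated best with its own number. With the replicate block 227 genes and 2 members, *Slc26a7* and *Ptgds*, were called.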
